A study of Mus musculus with 6 samples.

Results

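The substrate adaptors of cullin ubiquitin ligases were followed in mouse fibroblasts treated with hydrogen peroxide (H2O2). They were taken as every gene name on the array that starts with Fbxl, Fbxo, Fbxw, Kctd or Klhl followed by a digit, without Fbxo32, and 1 probe stood for each gene. This gave 110 genes of 27962 gene names on the array: 20 Fbxl, 33 Fbxo, 13 Fbxw, 21 Kctd and 23 Klhl genes. The families were chosen by their measured differences at 2 h, where several of them were lower in these same arrays, so every difference between 2 h and untreated cells is a description without a test. The same holds for 4 h against 2 h, which uses the 2 h arrays. Only 4 h against untreated cells was tested, and its untreated arrays also entered the 2 h values.

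Cullin ligases join ubiquitin to proteins and so mark most of them for the proteasome. The cullin is a scaffold that holds a RING protein with its ubiquitin-loaded E2 enzyme at one end and an exchangeable adaptor at the other, and the adaptor decides which protein is marked. F-box proteins dock on Cul1 through Skp1, and are named Fbxl, Fbxw or Fbxo by whether they carry leucine-rich repeats, WD40 repeats or another substrate-binding part. Klhl proteins and many Kctd proteins dock on Cul3 through a BTB domain. The best known redox sensor of fibroblasts, Keap1, is a Klhl protein under another name that holds the transcription factor Nrf2 low until oxidants modify it.

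RNA came from primary embryonic fibroblasts of mouse, grown in DMEM with 10% fetal calf serum. There were 3 groups of 2 one-colour Agilent arrays: untreated cells (0 h), cells after 2 h in 1 mM H2O2 and cells after 4 h in 1 mM H2O2. The labels call the arrays of a group 2 independent experiments and give no strain, genotype, embryo number or passage, so the p-values measure only the spread between these samples. No untreated cells were kept alongside for 2 h or 4 h, and each time point sat at the same position on both slides, so position and time cannot be told apart.

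Between 57.3% and 68.0% of spots on an array lay well above background, no spot was saturated, and precision is limited by there being 2 arrays in a group. All 14 fibroblast markers on the array were above background in every group. Markers of other cells were present at low levels: the summed signal of 8 skeletal and heart muscle genes went from 2.45 to 2.63 (in units of the array's 75th percentile) in untreated cells to 4.97 to 5.27 at 2 h and 4.24 to 4.60 at 4 h, and that of 8 endothelial genes from 0.529 to 0.559, to 1.06 to 1.20 and to 1.04 on both 4 h arrays. Only Myod1 of the muscle list and Cdh5 of the endothelial list were above background on no array. Above background on both arrays of a group were 6 muscle genes in untreated cells, 5 at 2 h and 5 at 4 h. For endothelial genes these counts were 4, 7 and 5. Summed signals of the macrophage and blood, epithelial and erythroid lists were higher than untreated at both times. That of 8 neuron genes was 3.17 on both untreated arrays, 3.42 to 3.89 at 2 h and 2.55 to 2.69 at 4 h. That of 6 melanocyte and glia genes was 0.67, then 0.61 to 0.64, then 0.65 to 0.68. The part of such cells, if present, in the results below was not tested. Numbers of cells of a type and RNA per cell cannot be told apart in such samples.

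Of the 110 adaptor genes, 95 had a group in which both arrays lay well above background, and these were tested. On all 6 arrays 88 genes were above background. Of the 15 genes left out, 11 were above background on no array: Fbxo24, Fbxo40, Fbxo43, Fbxw13, Fbxw14, Fbxw16, Fbxw19, Kctd16, Kctd19, Klhl4 and Klhl14. The other 4 were Fbxl21, Fbxo41 and Kctd14 (2 arrays each, not of 1 group) and Fbxw15 (1 array). Just inside the filter were Fbxl13, Fbxo15, Fbxo16, Kctd8, Klhl1, Klhl6 and Klhl10, each above background on 3 to 5 arrays. Levels are given as log2 of the signal relative to the array's 75th percentile, so that 0 is the signal of a spot at that percentile, and levels of different probes are not compared.

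At 4 h, 33 of the 95 tested adaptor genes (34.7%) were lower than in untreated cells by limma with Benjamini-Hochberg adjustment over all 17334 features at an adjusted p under 0.05, against 18.4% of all features. Higher were 16 (16.8%), against 24.6% of all features, and 46 did not pass. By the arrays alone, both 4 h arrays lay below both untreated arrays for 49 genes (51.6%; 31.5% of all features) and above them for 26 (27.4%; 41.8%). The median adaptor gene stood at -0.15 on the log2 scale, the median of all features at 0.07. The lower group held Fbxl7, an F-box protein reported to target Aurora A, Kctd12b, a relative of the auxiliary subunits of GABA-B receptors, and Fbxo5, the inhibitor of the anaphase-promoting complex also called Emi1. Among the higher genes were Fbxw7, the adaptor for cyclin E and Myc, and Klhl21, an adaptor for Aurora B in mitosis. Scaling on the array's spike-in controls turned the split to 50 lower and 9 higher, and no scaling gave 44 and 9. Normexp background correction gave 11 and 10 with the 75th percentile and 38 and 18 with quantile normalization. The median of all features moved too, to -0.20 with spike-in scaling, -0.19 with no scaling and 0.18 with normexp and the 75th percentile. The shares of all features called under these settings are not given, so these counts have no background.

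Kctd genes were the lowest family at 4 h by median (-0.28), with 9 of 18 tested genes lower and 2 higher. The Fbxo median was -0.16 (8 lower and 6 higher of 29), the Klhl median -0.12 (6 and 3 of 21), the Fbxl median -0.08 (8 and 4 of 19) and the Fbxw median 0.02 (2 and 1 of 8). Under each scaling, background correction, filter and replicate setting tried, the Fbxl, Fbxo, Kctd and Klhl medians lay below that of all features at both times. At 2 h this follows from how the families were picked and is no evidence about them. The Fbxw median lay above that of all features under some settings and below it under others. With normexp and the 75th percentile the Kctd median at 4 h was -0.030, the Fbxo median -0.092, the Klhl median 0.13 and the Fbxl median 0.0051, each below the 0.18 of all features. Fbxo, not Kctd, was thus the lowest family under that setting. Without 4 h replicate 2 the Fbxl median (-0.270) lay just below that of Kctd (-0.264).

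**Figure D1:**
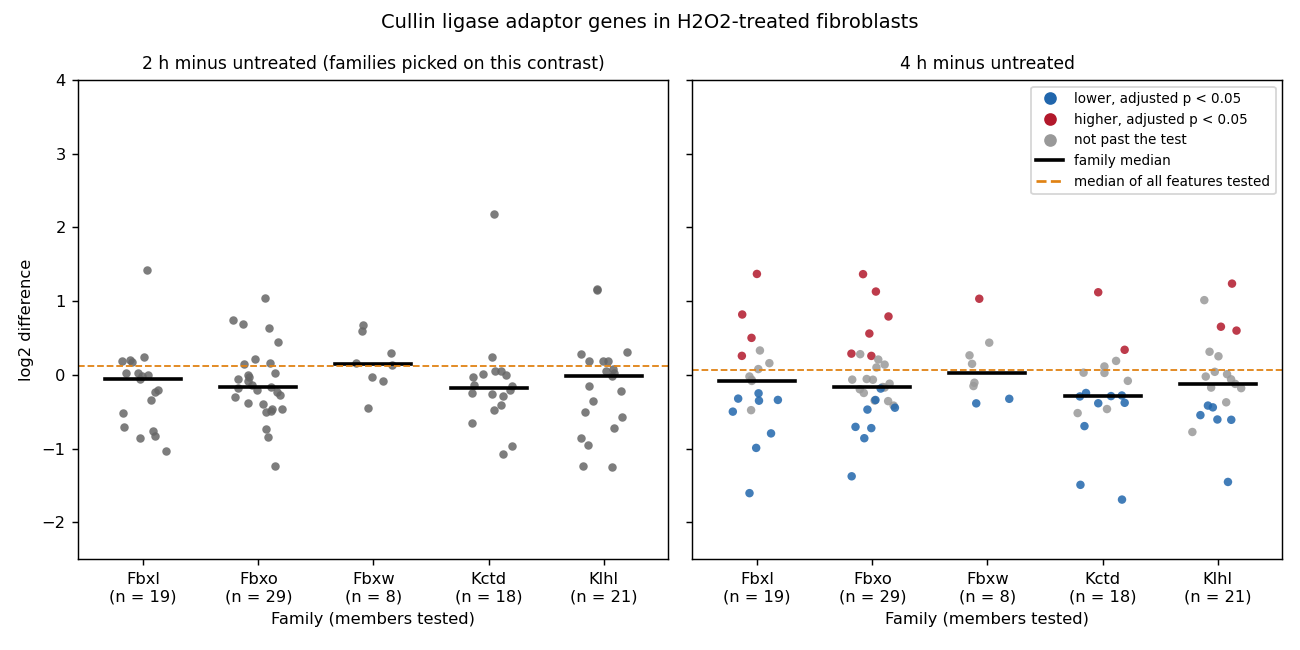
Log2 difference of each tested adaptor gene from untreated cells (y axis) by family (x axis), at 2 h on the left and 4 h on the right; black bars are family medians and the dashed line is the median of all features tested. At 4 h, 33 genes are lower and 16 higher past the test, and the Kctd median is -0.28.

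At 2 h, a description of the contrast by which the families were picked, both treated arrays lay below both untreated arrays for 50 genes (52.6%; 27.4% of all features) and above them for 22 (23.2%; 48% of all features). As a description from which nothing is read, 32 genes were lower (15.3% of all features) and 9 higher (23.7%) at the same limma threshold. The median adaptor gene stood at -0.09, and that of all features at 0.12.

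Between 2 h and 4 h the arrays did not overlap for 33 genes that were lower at 4 h (34.7%; 41.2% of all features) and 36 that were higher (37.9%; 25.9%). The adaptors took several courses over the 4 h. For 26 genes (27.4%; 13.7% of all features) both 2 h arrays lay below the untreated arrays and both 4 h arrays above the 2 h arrays. In 14 of these (14.7%; 4.93% of all features) the 4 h arrays were still below the untreated ones, and in 8 (8.42%; 5.05%) they were above them. A further 14 genes (14.7%; 9.01%) were lower at each step, 7 (7.37%; 8.3%) were higher at each step, and 10 (10.5%; 22.9%) were above untreated at 2 h and lower again at 4 h than at 2 h. In 4 genes (4.21%; 5.06%) the arrays lay above untreated at 2 h and below untreated at 4 h. These counts use the contrast that picked the families and are not evidence about them.

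**Figure D2:**
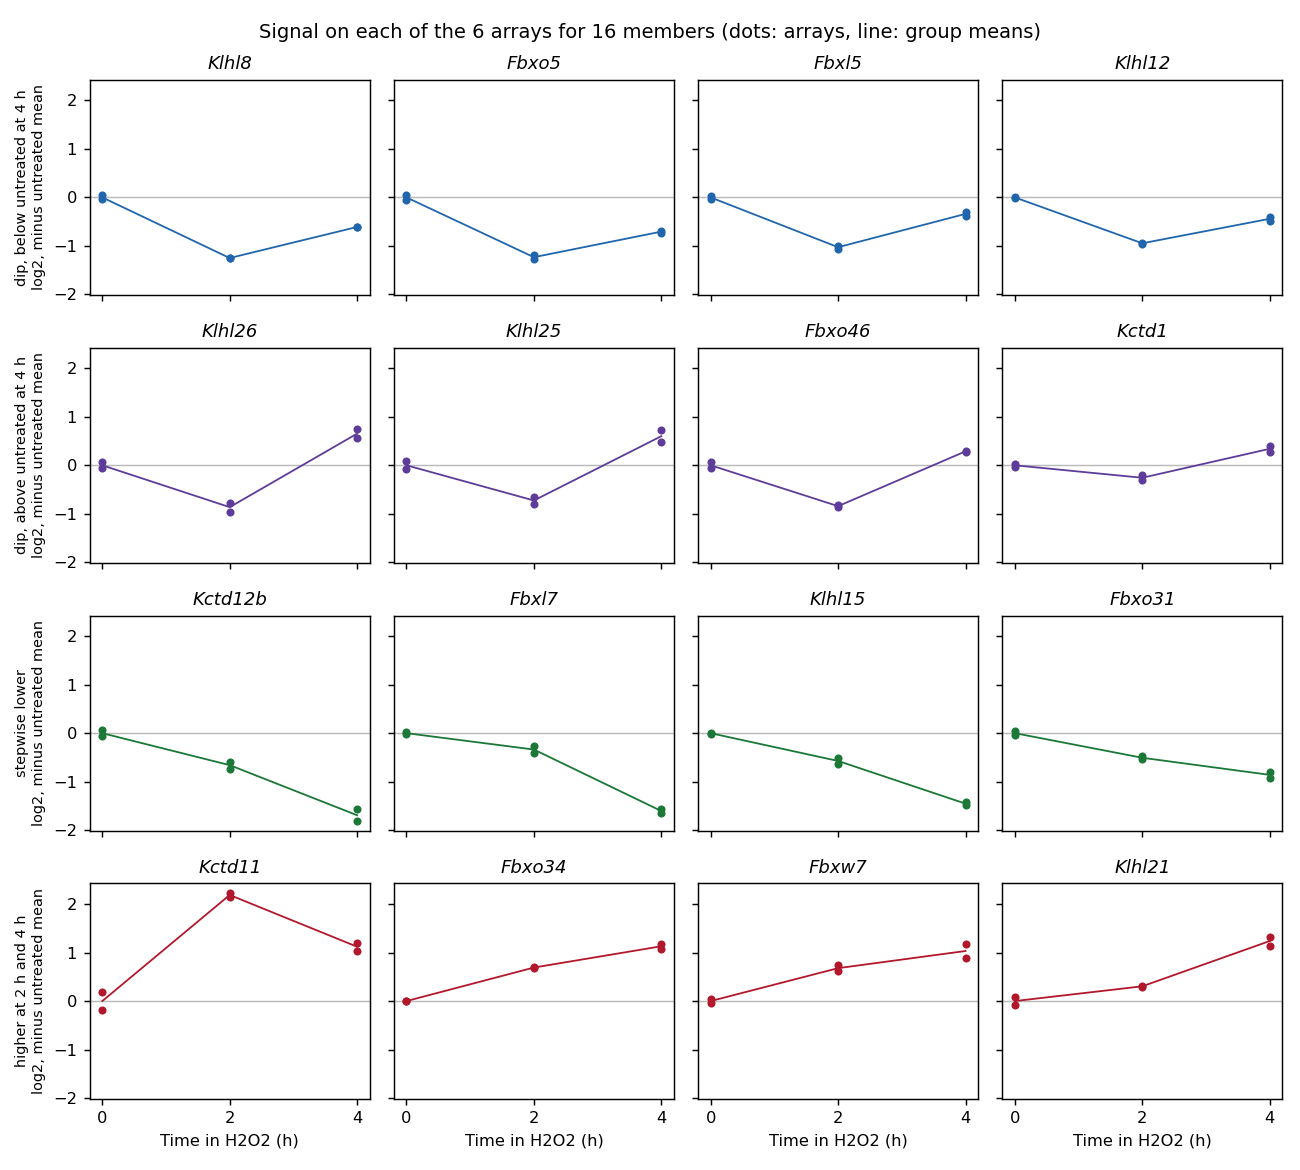
Log2 signal of 16 adaptor genes on each of the 6 arrays (dots) minus the mean of the untreated arrays (y axis), against hours in 1 mM H2O2 (x axis); lines join group means and each row shows 1 course. Klhl8 and Fbxo5 sit lowest at 2 h, Klhl25 and Klhl26 end above untreated cells, Kctd12b and Fbxl7 are lower at each step, and Kctd11 is highest at 2 h.

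Among adaptors with known roles in the cell cycle and DNA damage, 5 of 17 tested fell at 4 h (Fbxo5, Fbxo31, Fbxo18, Fbxo7 and Fbxl2), 4 rose (Fbxw7, Klhl21, Fbxl20 and Fbxl12) and 8 did not pass, where 18.4% of all features were lower and 24.6% higher; the median was -0.06. With the replicate number as a block, Fbxo38 passed as well (0.21, limma adjusted p = 0.032 against 0.0569). Fbxo5 holds the anaphase-promoting complex inactive until mitosis. It read 1.87 and 1.78 on the untreated arrays, 0.64 and 0.55 at 2 h, and 1.14 and 1.10 at 4 h. The 3 groups did not overlap, with the lowest values at 2 h. The difference from untreated cells was -1.23 at 2 h and -0.71 ± 0.07 (SE, n = 2 arrays per group) at 4 h, with a limma Benjamini-Hochberg adjusted p of 0.00243.

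Fbxo31, an adaptor for cyclin D1 after DNA damage, read 1.42 and 1.51 in untreated cells, 0.93 and 0.98 at 2 h, and 0.54 and 0.67 at 4 h. Each group lay below the one before it. It fell by 0.86 on the log2 scale at 4 h (SE 0.07, limma Benjamini-Hochberg adjusted p = 0.00183). Fbxo18, the helicase now named Fbh1, fell by 0.34, Fbxo7, which binds cyclin D complexes and parkin, by 0.47, and Fbxl2 by 0.25.

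Fbxw7 went the other way. Its values were -0.54 and -0.46, then 0.12 and 0.24, then 0.39 and 0.67. The groups did not overlap and each stood above the one before. At 4 h it was 2.04-fold higher than in untreated cells (log2 1.03 ± 0.12, SE; limma Benjamini-Hochberg adjusted p = 0.00372), and a second Fbxw7 probe 6.68 kb upstream gave 1.01.

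Klhl21 read -0.22 and -0.08 untreated, 0.16 and 0.14 at 2 h, and 0.99 and 1.18 at 4 h. Most of its difference came between 2 h and 4 h (0.93). At 4 h it had risen by 1.24 ± 0.09 on the log2 scale (SE; limma Benjamini-Hochberg adjusted p = 0.00136). Fbxl20 rose by 0.82 and Fbxl12 by 0.26, the latter after lying 0.21 below untreated cells at 2 h.

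The promoters of 4 of these adaptors are printed to set a gene that dipped (Fbxo5), one that was lower at each step (Fbxl7) and a pair that rose (Klhl21 and Kctd11) side by side. Each line is the 250 bases before the start of the gene, 5′ to 3′ on the gene's strand, from RefSeq on GRCm38.p6: chr10:5805466-5805715 (-) for Fbxo5, chr15:26895565-26895814 (-) for Fbxl7, chr4:152008641-152008890 (+) for Klhl21 and chr11:69880986-69881235 (-) for Kctd11. Capitals mark, on either strand, the Sp1 box GGGCGG, the CCAAT box CCAAT and the AP-1 site TGANTCA.
Fbxo5: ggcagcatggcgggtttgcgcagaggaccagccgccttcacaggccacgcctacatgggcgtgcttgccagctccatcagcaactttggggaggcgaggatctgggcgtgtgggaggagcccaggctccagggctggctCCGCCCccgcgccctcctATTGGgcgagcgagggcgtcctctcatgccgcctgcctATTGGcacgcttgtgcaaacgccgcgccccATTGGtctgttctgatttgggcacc
Fbxl7: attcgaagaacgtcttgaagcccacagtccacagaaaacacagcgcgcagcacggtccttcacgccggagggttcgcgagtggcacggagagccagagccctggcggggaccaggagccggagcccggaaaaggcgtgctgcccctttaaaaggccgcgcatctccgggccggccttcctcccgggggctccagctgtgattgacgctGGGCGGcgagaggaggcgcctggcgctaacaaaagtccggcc
Klhl21: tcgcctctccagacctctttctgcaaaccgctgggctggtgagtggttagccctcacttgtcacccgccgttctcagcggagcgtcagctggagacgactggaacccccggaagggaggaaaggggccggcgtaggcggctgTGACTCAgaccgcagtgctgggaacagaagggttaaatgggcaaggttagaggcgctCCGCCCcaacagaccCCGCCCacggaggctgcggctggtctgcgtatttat
Kctd11: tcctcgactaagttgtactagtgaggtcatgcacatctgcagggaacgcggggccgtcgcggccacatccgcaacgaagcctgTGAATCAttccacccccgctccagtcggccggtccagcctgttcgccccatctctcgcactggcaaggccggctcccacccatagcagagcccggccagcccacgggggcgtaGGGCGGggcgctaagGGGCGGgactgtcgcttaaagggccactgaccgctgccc

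Fbxo5 held 1 Sp1 box and 3 CCAAT boxes, Fbxl7 1 Sp1 box, and Klhl21 and Kctd11 each 2 Sp1 boxes and 1 AP-1 site. Searched for as well, and absent from all 4 windows, were the cyclic AMP response element TGACGTCA, the antioxidant response element core TGACNNNGC, the E2F site TTTNNCGC and the E-box CACGTG. No searched pair of motifs shares bases in the printed windows. RefSeq gave 120 such windows for 83 of the 110 adaptor genes. The Sp1 box was in 61.7% of them, against 32.7% of all 32851 windows and 55.1% of the 14242 windows of tested features. The CCAAT box was in 22.5% (33.8% of all windows, 34.8% of tested features), the AP-1 site in 5.83% (6.75%, 4.75%) and the antioxidant core in 11.7% (10.2%, 11.6%). By call at 4 h, the AP-1 site was in 2 of 18 windows of adaptors called higher (11.1%), those of Klhl21 and Kctd11 printed above. Of the 37 windows of adaptors called lower, 2 held it (5.41%). In the same 18 and 37 windows, the Sp1 box was in 16 and 24, the CCAAT box in 8 and 8 and the antioxidant core in 2 and 4. The E2F site was in 0 and 5, the cyclic AMP element in 0 and 2 and the E-box in 0 and 4. These splits were not tested. Over all 120 adaptor windows, the E2F site was in 6.67% (4.28%, 6.39%), the cyclic AMP element in 2.5% (1.55%, 2.46%) and the E-box in 5% (6.02%, 7.92%). A match is a run of letters and not a measured site.

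In the group of adaptors with roles in iron, Wnt and other signalling, 6 of 14 tested fell at 4 h (Fbxl5, Fbxl14, Fbxl15, Klhl12, Klhl15 and Klhl20), 3 rose (among them Fbxo30 and Klhl25) and 5 did not pass (18.4% and 24.6% of all features); the median was -0.24. With the replicate number as a block, Fbxo45 passed too (-0.16, limma adjusted p = 0.0405 against 0.16). Fbxl5 is the iron-sensing adaptor for iron regulatory protein IRP2. It read 0.00 and -0.07 in untreated cells, -1.09 and -1.03 at 2 h, and -0.42 and -0.33 at 4 h. The 2 h arrays were the lowest and no groups overlapped. At 4 h it had fallen by 0.34 (SE 0.06, limma Benjamini-Hochberg adjusted p = 0.0149), while another Fbxl5 probe, 13.3 kb downstream, stood at 0.32.

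Klhl12, which acts on Dishevelled and on collagen export, read -0.11 and -0.08, then -1.03 and -1.04, then -0.58 and -0.49. It was lowest at 2 h and fell by 0.44 at 4 h (SE 0.06, limma Benjamini-Hochberg adjusted p = 0.00594). Fbxl15, an adaptor for the ligase Smurf1, read 0.48 and 0.27, then -0.38 and -0.59, then -0.53 and -0.71. Its treated groups overlapped each other but not the untreated arrays, and the fall at 4 h was 0.99 (SE 0.12, limma Benjamini-Hochberg adjusted p = 0.00499). Fbxl14, an adaptor for Snail, fell by 0.32 and Klhl20 by 0.61.

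Kctd proteins with a known partner were tested for 14 genes: 7 fell (Kctd2, Kctd3, Kctd5, Kctd8, Kctd9, Kctd12 and Kctd15), Kctd1 and Kctd11 rose, and 5 did not pass (18.4% and 24.6% of all features), with a median of -0.27. Kctd15 and Kctd1 both repress the transcription factor AP-2. Kctd15 read 3.82 and 3.82, then 3.40 and 3.41, then 3.15 and 3.1, falling by 0.69 (SE 0.05, limma Benjamini-Hochberg adjusted p = 0.00142). Kctd1 read 0.61 and 0.54, then 0.37 and 0.26, then 0.98 and 0.85, rising by 0.34 (SE 0.08, limma Benjamini-Hochberg adjusted p = 0.0253). No groups overlapped in either gene, and at 4 h the pair lay on opposite sides of untreated cells.

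Kctd11 restrains Hedgehog signalling. It read -4.12 and -4.49 in untreated cells, -2.08 and -2.16 at 2 h, and -3.10 and -3.26 at 4 h. It had the largest difference of any tested adaptor gene at 2 h (2.19, or 4.55-fold), and at 4 h was higher by 1.12 ± 0.14 (SE; limma Benjamini-Hochberg adjusted p = 0.00512). Kctd12b, outside that group, read -1.94 and -2.07, then -2.74 and -2.59, then -3.57 and -3.82. Each group was below the one before, and the fall at 4 h was 1.69 (SE 0.11, limma Benjamini-Hochberg adjusted p = 0.00109), which did not pass with normexp correction and the 75th percentile.

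Kctd12 and Kctd8 are auxiliary subunits of GABA-B receptors. Kctd12 fell by 0.29. Kctd8 differed by -1.49 ± 0.39 (SE; limma Benjamini-Hochberg adjusted p = 0.0364), from untreated values of -2.81 and -3.89 that were far apart, and it failed without 5 of the 6 arrays in turn (all but untreated replicate 2). Kctd2 and Kctd5, which bind G protein beta-gamma subunits, fell by 0.29 and 0.38. Kctd17 of the same subgroup stood at 0.11 (limma adjusted p = 0.623). Kctd7, a gene of neuronal lysosomal disease, lay at -0.96 at 2 h and -0.52 at 4 h. Its adjusted p was 0.0684 with limma and 0.0133 with the replicate number as a block.

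The 5 F-box adaptors that bind glycoproteins (Fbxo2, Fbxo6b, Fbxo17, Fbxo27 and Fbxo44) gave no call at 4 h, with a median of -0.07. With the replicate number as a block, Fbxo17 (-0.42, limma adjusted p = 0.007 against 0.207) and Fbxo27 (-0.36, 0.00798 against 0.0812) passed.

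Fbxl7 was among the adaptors that fell at 4 h without a place in these role groups. Its chosen probe read 2.00 and 2.04 untreated, 1.60 and 1.76 at 2 h, and 0.36 and 0.46 at 4 h. Each group lay below the one before, and at 4 h the signal was 3.04-fold lower (log2 -1.60 ± 0.08, SE; limma Benjamini-Hochberg adjusted p = 0.000589). Fbxl17, which removes wrongly paired BTB proteins, read 1.46 and 1.51, then 1.55 and 1.46, then 0.75 and 0.64. This chosen probe was level at 2 h and fell by 0.79 at 4 h (SE 0.07, limma Benjamini-Hochberg adjusted p = 0.00207). The other Fbxl17 probe above background on all arrays stood at 1.00 at 2 h and at -0.39 at 4 h. Fbxo10, an adaptor for Bcl2, fell by 0.72, and Klhl8 by 0.61.

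Fbxo15, a gene known from embryonic stem cells, was above background on 1 untreated array, both 2 h arrays and no 4 h array. It read -5.17 and -5.37, then -4.58 and -4.47, then -6.37 and -6.93. At 4 h it was not well above background, so no fold against untreated cells is given although it is among the 33 calls, and 4 h lay at least 1.21-fold below 2 h. Fbxo16 was likewise not above background at 4 h.

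Among other adaptors that rose, Fbxo34 read 0.75 and 0.74, then 1.45 and 1.41, then 1.92 and 1.82. It stood higher at each step and rose by 1.13 ± 0.06 (SE; limma Benjamini-Hochberg adjusted p = 0.00065). Fbxo36 read -1.62 and -1.92, then -0.63 and -0.82, then -0.34 and -0.47, rising by 1.36 ± 0.13 (SE; limma Benjamini-Hochberg adjusted p = 0.00251). Fbxl13, above background on 1 of the 2 untreated arrays and on both of each treated group, passed the filter through the treated groups, where it is high; its measured difference was 1.37. Fbxo28 rose by 0.79. The groups of each of these 4 genes did not overlap between untreated and 4 h cells.

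The genes that crossed from below to above untreated cells were led by Klhl26. It read 0.45 and 0.57 untreated, -0.44 and -0.26 at 2 h, and 1.07 and 1.26 at 4 h. Its difference from untreated cells turned from -0.86 to 0.65 ± 0.11 (SE; limma Benjamini-Hochberg adjusted p = 0.0104 at 4 h), a step of 1.51 between the times. Klhl25, an adaptor for the translation repressor 4E-BP1, read 1.09 and 0.92, then 0.36 and 0.20, then 1.72 and 1.49. Its 4 h arrays stood highest, with a rise of 0.60 ± 0.12 (SE; limma Benjamini-Hochberg adjusted p = 0.0179). Fbxo46 read -0.83 and -0.95, then -1.70 and -1.76, then -0.61 and -0.59, a rise of 0.29 at 4 h. The Klhl26 call was lost without scaling, with spike-in scaling and without untreated replicate 1; that of Klhl25 was lost under 7 settings.

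A few values rested on 1 array. Klhl6 stood at 1.15 at 2 h because 1 array read -1.40 and the other -3.88, against -3.60 and -3.96 in untreated cells; without the first of these arrays the difference was -0.09. Kctd20 read 3.62 and 3.62, then 3.60 and 3.64, then 2.71 and 3.60, and its other probes above background gave 0.16 and 0.11 at 4 h. Klhl11, at -1.23 among the lowest at 2 h, had untreated values of -2.57 and -3.56, and at 4 h stood at -0.37 (limma adjusted p = 0.44). Klhl10 had another limit: it was above background on only 4 arrays, with untreated values of -5.96 and -5.49. It lay at 1.17 at 2 h and 1.01 at 4 h. Its untreated signal was dim and its treated signal higher, so the filter favours a rise and no p is printed.

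For some adaptors the difference depended on which probe of the gene was read. Distances between probes are along the genome. Whether the probes of a gene read the same transcript was not tested. The array carried 203 probes for the 110 genes, and 34 tested genes had 45 further probes above background on all 6 arrays. Of 27 such probes of 22 genes that passed at 4 h, 21 had the sign of the chosen probe and 6 did not (1 each of Fbxl5, Fbxo42, Kctd18, Klhl8, Klhl15 and Klhl25). The median distance between the probes' differences was 0.20 at 4 h and 0.22 at 2 h.

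**Figure D3:**
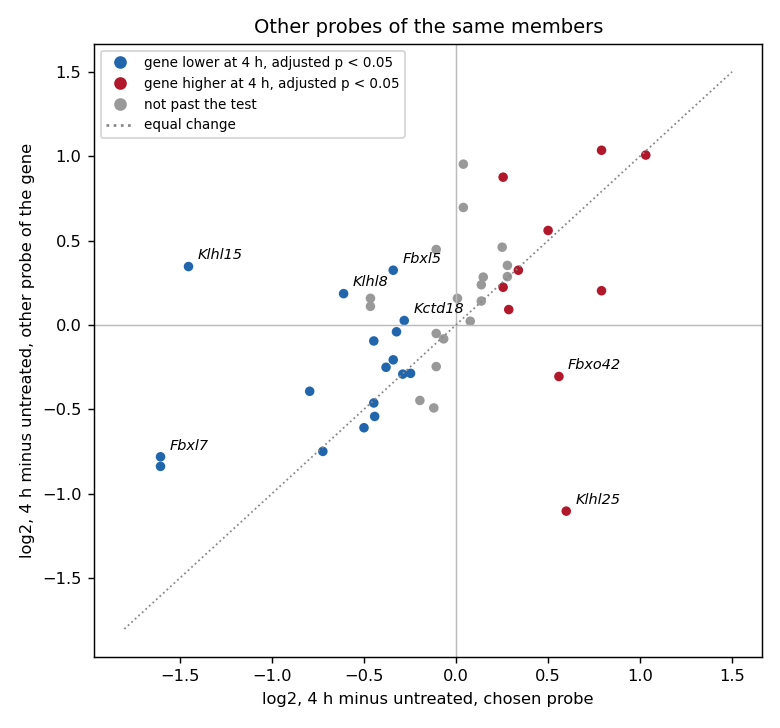
Log2 difference between 4 h and untreated cells for the chosen probe of an adaptor gene (x axis) and for each other probe of that gene above background on all arrays (y axis); the dotted line marks equal change. The named genes are those whose other probe had the opposite sign, of which Klhl25 and Klhl15 lie farthest from the line, and Fbxl7.

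Fbxl7 showed the widest gap between probes at 2 h. A pair of its probes lay over 248 kb upstream of the chosen one, and the nearer of them read 0.26 and 0.31 untreated, -2.04 and -1.98 at 2 h, and -0.58 and -0.52 at 4 h. These upstream probes stood at -2.29 and -2.15 at 2 h and at -0.84 and -0.78 at 4 h, whereas the chosen probe stood at -0.34 and -1.60. The upstream signal was thus lowest at 2 h and the downstream signal at 4 h.

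A Klhl25 probe 6.44 kb upstream of the chosen one read 0.19 and 0.08, then -2.00 and -2.34, then -0.87 and -1.06. It was below untreated cells at both times, by 2.30 and 1.10, where the chosen probe was above them at 4 h. A Klhl15 probe 15.3 kb upstream read -3.24 and -3.20, then -4.16 and -4.23, then -3.05 and -2.70. It stood at 0.35 at 4 h, where the chosen probe of this adaptor for a PP2A subunit fell by 1.45 (SE 0.07, limma Benjamini-Hochberg adjusted p = 0.000543). The chosen probe of Klhl8 and one 2.05 kb upstream stood together at 2 h (-1.25 and -1.30) and apart at 4 h (-0.61 and 0.19).

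**Figure D4:**
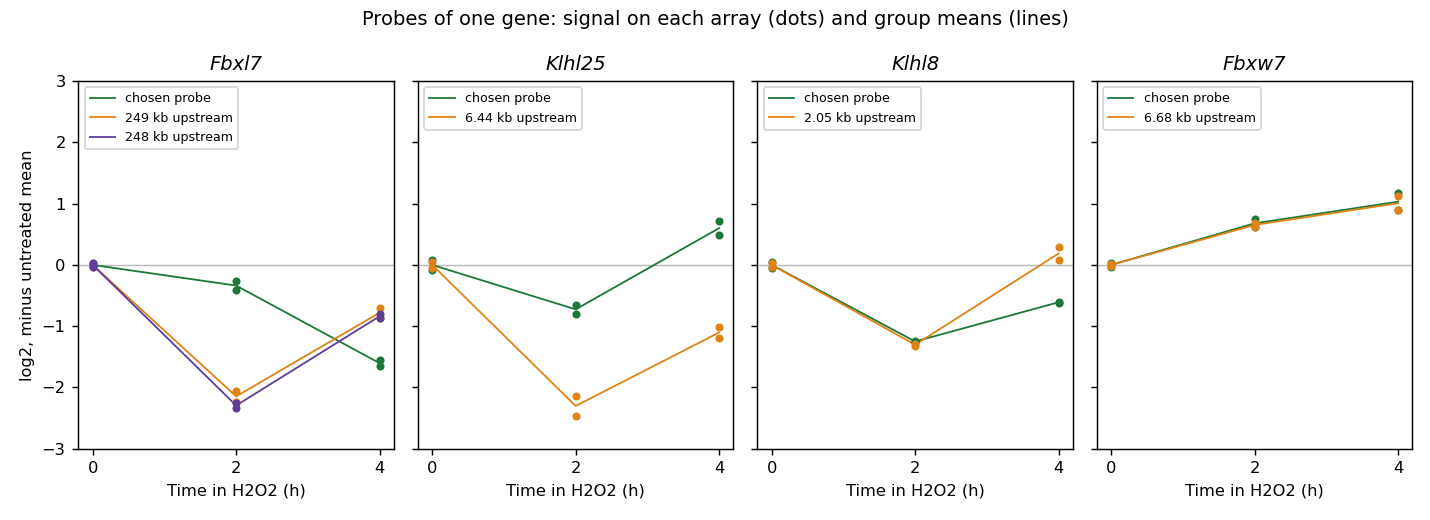
Log2 signal of single probes on each array (dots) minus their untreated mean (y axis), against hours in H2O2 (x axis). The 4 genes have probes at different places along the gene, and lines join group means. Upstream probes of Fbxl7 and Klhl25 sit more than 2 log2 units below untreated cells at 2 h, while both Fbxw7 probes run together.

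In 25 adaptor genes the most upstream and most downstream probes above background on all arrays were at least 1 kb apart (median 6.68 kb). The upstream probe had the lower difference at 2 h in 17 of them (68%), against 47.0% of all 3968 gene names with such probes, and the median of upstream minus downstream was -0.11 against 0.02. It was lower by over 0.5 in 5 adaptor genes (Fbxl7, Fbxl17, Kctd1, Kctd18 and Klhl25), and the downstream probe was so in 1 (Fbxo42). Among all 3968 gene names these counts were 344 and 332. At 4 h the upstream probe was lower in 9 (36%; 44.0% of all), with a median of 0.13 against 0.03. These comparisons were chosen after the values were seen and are descriptions. Across the 95 tested genes the rank correlation of the difference with the log length of the gene was 0.19 at 2 h and 0.01 at 4 h, against -0.12 and -0.15 over the 14244 features with a RefSeq gene, as a description over genes of the same 6 arrays.

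The parts of the ligases that adaptors share were followed from lists. They are to be read against the 18.4% of all features that were lower and 24.6% that were higher at 4 h. These shares are of the fit without a block. The shares of all features with the block are not given, so list counts with the block have no background. Of 14 cullins and their fixed partners, 3 rose at 4 h (Skp1a by 0.41, Rbx1 by 0.27 and Tceb1, elongin C, by 0.26), 2 fell (Parc, the cullin-like Cul9, by 1.25 and Cul5 by 0.46) and 9 did not pass; the median was 0.12. Cul1 stood at -0.08 (limma adjusted p = 0.268) and Cul3 at 0.17 (0.075). With the replicate number as a block, 7 of the 14 passed as higher, Cul3 among them (limma adjusted p = 0.0313), and 2 as lower. The COP9 signalosome, which takes the activating NEDD8 tag off cullins, had 4 of 9 subunits higher (Cops2 by 0.45, Cops8 by 0.32, Cops5 by 0.28, Cops4 by 0.20), none lower and 5 without a call, and with the block 6 were higher.

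Of 14 genes for joining NEDD8 to cullins and exchanging adaptors, Nedd8 and Dcun1d3 each rose by 0.36, Cand2 fell by 0.80, Glmn by 0.40 and AW495713 by 0.25, and 9 did not pass. Among 9 E1, E2 and Arih enzymes, Cdc34, the E2 of Cul1 ligases, rose by 0.46, Arih2 by 0.39 and Arih1 by 0.27, Ube2d3 fell by 0.25, and 5 did not pass. Medians of these lists stood at 0.03 and 0.21. With the block, 5 genes of the NEDD8 list were lower and 2 higher, and 1 and 4 of the enzymes.

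Adaptors outside the naming rule were mixed, where 18.4% of all features were lower and 24.6% higher at 4 h. Of 5 F-box genes under other names, Ccnf (cyclin F) rose by 0.34 and Tbl1x by 0.27, Lmo7 fell by 0.99, and Skp2 and Btrc did not pass. Of 22 BTB adaptors under other names, 3 rose (Kbtbd5 by 3.08, Kbtbd11 by 1.21, Enc1 by 0.53) and 5 fell (among them Btbd9 by 0.71 and Rhobtb1 by 0.58); with the block these counts were 5 and 8. Keap1 stood at -0.09 at 2 h and -0.14 at 4 h (limma adjusted p = 0.342). Of 45 receptors of other cullins, 10 fell and 11 rose, with a median of -0.02. Asb5 was highest at 1.71 and Fem1c stood at 0.70. Untreated values were low for Kbtbd5 (-4.87 and -5.55) and Asb5 (-5.53 and -5.57). Some adaptor genes with such values were not above background, so the sizes of these rises are uncertain. By its 4 h median the receptors' list was nearer to all features (0.07) than the adaptor families were (-0.15), a difference that was not tested. The adaptor families had been picked as low against the same untreated arrays. At 2 h the receptors' median was -0.17 and that of the adaptor families -0.09.

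**Figure D5:**
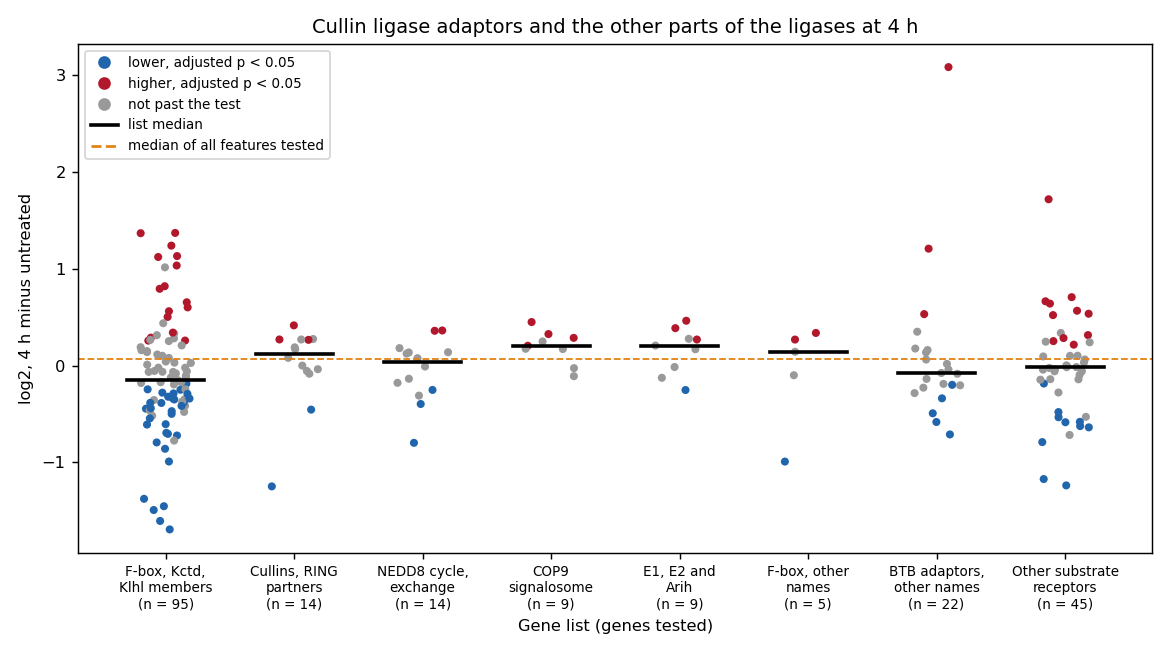
Log2 difference between 4 h and untreated cells (y axis) for the 95 tested adaptor genes and for 7 lists of other ligase parts (x axis); black bars are list medians, the dashed line is the median of all features and colours mark genes past the test. The adaptor families, picked on 2 h values that used the same untreated arrays, have the lowest median of the 8 columns, at -0.15.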

How the data were processed

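RNA of 6 samples was read on one-colour Agilent arrays. Per the file headers, the authors scanned them with a G2505B scanner and extracted fluorescence intensity with Feature Extraction 9.5.3.1 (protocol GE1-v5_95_Feb07); the deposited value table equals the processed intensity within 0.0005. The genome build behind the files' probe coordinates is not stated, so only distances between probes are printed; probe strand equalled the RefSeq strand for 98.7% of 15684 gene names.

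From the deposited intensity, log2 values minus each array's 75th percentile over 43379 non-control spots were computed (percentiles 674 to 883), leaving out 99 to 149 flagged spots per array. Repeated spots were averaged, and 1 probe (that of highest mean) was kept for a gene name. Names are those in the files; 4 adaptor genes carry other current symbols (Fbxl10 is Kdm2b, Fbxl11 Kdm2a, Fbxo18 Fbh1, Fbxo6b Fbxo6). Features with a group whose arrays all lay well above background were fitted with limma 3.58.1 in R 4.3.3 over all 6 arrays (3 residual degrees of freedom), p-values were adjusted by Benjamini-Hochberg over 17334 features, and a call is an adjusted p under 0.05. The fit was tested on simulated data. Groups overlap where any array of one lies within or beyond the other; this used the 17311 features with a value on all arrays. A bound ("at least") sets the bright group's mean against the higher of the dim probe's signal and the array's lowest signal well above background.

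Named were the 10 lowest and 6 highest genes at 2 h, the 10 lowest and 10 highest called at 4 h, the 8 with the largest step between the times, members of role groups and the largest calls of pathway lists. The members, role groups and lists were chosen with earlier results of these data known. Genes named for their probes or for 1 unusual array, Kctd genes beyond 4, and list genes without a call were chosen after their values were seen. Replicate number, slide and scan coincide. Same-numbered arrays deviated together (r = 0.25, 0.19 and 0.24 across features for the 3 pairs of groups), so a fit with the replicate number as a block was an alternative, beside other scalings, background corrections, filters, probe averages and arrays left out. The values of 1 adaptor gene are not reported here.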

Additional observations from a re-analysis of the deposited data

Results flagged for a closer look

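For 12 adaptor genes both 2 h arrays lay on one side of the untreated arrays and both 4 h arrays on the other; whether the effects at the times differ was not tested, and the same 2 untreated arrays serve both times. Among all features 5.05% went from below to above and 5.06% from above to below. From below to above, the step from 2 h to 4 h was 1.51 for Klhl26, 1.32 for Klhl25, 1.13 for Fbxo46, 0.60 for Kctd1, 0.55 for Fbxo33, 0.46 for Fbxl12, 0.31 for Fbxo30 and 0.29 for Fbxo38 on the log2 scale. From above to below, the signals of Fbxo15 differed by -2.12, but its 4 h value is not above background and the step is known only as at least 1.21-fold; it was -0.29 for Fbxw8, -0.28 for Fbxl2 and -0.27 for Klhl5. The upstream probe of Klhl25 was below untreated cells at both times. At 2 h Fbxl2 stood at 0.03 and Fbxo30 at -0.05, so their side of the untreated arrays rests on small differences.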

How the results depend on the processing

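The count of adaptor genes lower at 4 h (33) was 50 with spike-in scaling, 11 with normexp and the 75th percentile (38 with normexp and quantile normalization), 18 without a filter on dim probes, 21 with the mean of all probes and 18 to 26 with 1 array left out; the 18 came without either untreated array. The count higher at 4 h (16) was 9 with no scaling and with spike-in scaling, 10 with normexp and the 75th percentile (18 with quantile) and 11 to 14 with 1 array left out. With the replicate number as a block, 42 were lower and 21 higher, including all 33 and 16. At 2 h the block gave 40 lower and 18 higher, against 32 and 9. The 32 became 55 with no scaling, 71 with spike-in scaling, 11 with normexp and the 75th percentile and 18 to 28 with 1 array left out, and the 9 became 4, 4, 5 and 5 to 9. These scalings move the median of all features: it stood at 0.12 at 2 h and 0.07 at 4 h, at -0.08 and -0.09 with median centring, at -0.22 and -0.19 with no scaling and at -0.33 and -0.20 with spike-in scaling.

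Against the median of all features, the adaptor median at 2 h (-0.20) was -0.13 with normexp and quantile normalization, -0.27 with no filter, -0.25 with genes above background on all arrays, -0.25 within replicate 2 and -0.19 to -0.23 with 1 array left out. At 4 h (-0.22) it was -0.16 with quantile normalization, with normexp and the 75th percentile and with the mean of all probes, -0.12 with normexp and quantile, -0.30 with no filter and -0.20 with all arrays above background. Between the times (0.02) it was 0.13 with the mean of all probes, 0.059 within replicate 2 and 0.023 to 0.076 with 1 array left out. The sign at 2 h was fixed by how the families were chosen.

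Of 20 genes named for their 4 h call, 12 kept it under every setting run for them. Reversed were Fbxl17 (0.025) and Klhl25 (-0.25) with the mean of all probes, and Fbxo15 (0.66) and Kctd8 (0.051) with normexp and the 75th percentile, and Klhl6 at 2 h, whose 1.15 ranged from -0.091 (without 2 h replicate 1) to 2.39 (without 2 h replicate 2). The Fbxl17 mean takes in 2 probes above background on no array; both of its other probes were lower at 4 h. The Klhl25 mean takes in its upstream probe, which stood at -1.10 at 4 h. For Fbxo15 and Kctd8 the cause was not tested. With 2 arrays per group, differences near 0.2 were often not separable from the spread, and Fbxo15, not above background at 4 h, has only a bound there.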
